A study of Rattus norvegicus with 24 samples.

Results

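Chemokines and chemokine receptors were taken as every named locus whose gene symbol starts with Ccl, Cxcl, Cx3cl, Xcl, Ccr, Cxcr, Cx3cr, Xcr or Ackr and goes on with a digit. The rule found 55 names, 34 ligands and 21 receptors, at 58 of the 26641 named loci. Ccr10, Cxcl17 and Cxcl2 had 2 loci each, and the locus with the higher mean over all libraries was kept. The libraries were mRNA-Seq of adult male Sprague-Dawley rats 3 months after lateral fluid-percussion injury, a model of traumatic brain injury (TBI) in which a pulse of fluid strikes the intact dura under an opening in the left parietal bone, or after a sham operation. The 6 sham rats had the anesthesia, the craniectomy and the rest of the surgery, and no impact. Perilesional cortex and ipsilateral thalamus were taken from the same 6 TBI rats and the same 6 sham rats, which gave 24 libraries in 4 groups. Per the study's methods, the sequenced TBI rats were a chosen subset with a chronic inflammatory pattern on imaging, and the RNA of several pieces of tissue was combined for each region.

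Chemokines are small secreted or membrane-tethered proteins that steer the migration of leukocytes and, in the brain, also pass between neurons, glia and vessels. They signal through G protein-coupled receptors, and most receptors take several ligands and most inflammatory ligands several receptors. Atypical receptors, such as Ackr2, Ackr4 and Cxcr7 (now named ACKR3), bind chemokines without coupling to G proteins and remove them. In healthy brain the family is known mainly for the neuronal ligand Cx3cl1 (fractalkine) with its microglial receptor Cx3cr1, and for Cxcl12 with its receptor Cxcr4.

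The values are normalized counts, that is, fragments assigned to a locus divided by a size factor of the library. They are not per length, so levels are compared between groups for each gene and never between genes. A member was called detected in a region where its mean over that region's 12 libraries was at least 10. By this limit 26 members were detected, 18 ligands and 8 receptors, and 29 were silent. Of the detected ligands, 16 passed the limit in both regions, and Ccl21 and Cxcl11 passed it in the cortex alone. The detected receptors included Cx3cr1, Ccr1, Ccr10, Cxcr4, Cxcr7, Ackr2 and Ackr4, and all 8 passed the limit in both regions. Just inside the limit lay Ccl9, whose higher regional mean was 12.4, and Ccl21 at 13.0, and just outside it lay Ccl7 at 9.89 and Cxcr6 at 8.38. With a limit of 5 the detected members numbered 34, and with a limit of 20 they numbered 21.

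RefSeq promoters, each the 250 bases before to the 50 bases after a gene's start in build GRCr8, were found for 41 of the 55 members and for 21 of the 26 detected ones. They are printed for the neighbouring interferon-inducible ligands Cxcl9, Cxcl10 and Cxcl11, for Cxcl16, which rose in both regions, and for Cx3cl1, which fell in both. Each runs 5′ to 3′ along the gene's own strand. Capitals mark the letters of 4 motifs searched on both strands, GGNNTTTCC (NF-kappaB), GAGGAA (core of PU.1, the myeloid factor), TTCNNNGAA (STAT) and GAAANNGAA (interferon response). Cxcl9 lies at chr14:16006916-16007215 (+), Cxcl10 at chr14:15988816-15989115 (+), Cxcl11 at chr14:15973478-15973777 (+), Cxcl16 at chr10:55669901-55670200 (-) and Cx3cl1 at chr19:10242771-10243070 (-).
Cxcl9: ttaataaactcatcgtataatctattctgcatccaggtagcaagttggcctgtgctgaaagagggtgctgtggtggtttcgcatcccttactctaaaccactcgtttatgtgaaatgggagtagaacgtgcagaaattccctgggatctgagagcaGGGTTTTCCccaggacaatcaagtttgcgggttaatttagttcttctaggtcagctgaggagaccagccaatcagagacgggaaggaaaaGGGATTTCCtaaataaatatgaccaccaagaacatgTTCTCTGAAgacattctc
Cxcl10: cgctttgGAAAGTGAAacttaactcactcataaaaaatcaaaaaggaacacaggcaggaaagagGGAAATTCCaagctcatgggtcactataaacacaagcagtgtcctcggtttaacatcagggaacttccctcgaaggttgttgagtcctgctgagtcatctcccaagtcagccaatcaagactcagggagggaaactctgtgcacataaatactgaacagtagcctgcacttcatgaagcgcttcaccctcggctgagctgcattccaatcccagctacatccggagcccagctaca
Cxcl11: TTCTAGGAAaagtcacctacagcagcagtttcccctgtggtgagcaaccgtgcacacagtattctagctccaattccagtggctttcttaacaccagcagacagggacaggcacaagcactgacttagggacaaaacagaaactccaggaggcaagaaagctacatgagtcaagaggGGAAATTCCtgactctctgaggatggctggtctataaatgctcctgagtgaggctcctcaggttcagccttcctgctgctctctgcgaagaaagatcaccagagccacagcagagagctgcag
Cxcl16: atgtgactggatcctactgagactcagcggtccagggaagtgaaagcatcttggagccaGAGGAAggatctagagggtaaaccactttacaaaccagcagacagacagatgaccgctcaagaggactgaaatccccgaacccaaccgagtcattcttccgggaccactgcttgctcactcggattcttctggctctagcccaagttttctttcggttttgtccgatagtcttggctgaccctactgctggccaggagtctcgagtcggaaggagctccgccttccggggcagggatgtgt
Cx3cl1: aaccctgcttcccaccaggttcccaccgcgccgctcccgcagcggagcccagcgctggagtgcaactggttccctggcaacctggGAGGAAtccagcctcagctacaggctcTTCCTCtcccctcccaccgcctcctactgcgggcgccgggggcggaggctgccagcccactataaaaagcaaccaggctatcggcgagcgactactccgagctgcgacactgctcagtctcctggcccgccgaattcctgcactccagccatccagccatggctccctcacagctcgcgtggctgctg

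All 3 neighbouring ligands held the NF-kappaB letters. In Cxcl10 these ran on the other strand from -186 to -178, with the gene's start as 0. The interferon response letters of Cxcl10 ran from -243 to -235. In Cxcl11 the NF-kappaB letters ran on the other strand from -73 to -65, and the STAT letters from -250 to -242. Cxcl9 held the NF-kappaB letters from -94 to -86 and from -4 to 4, and the STAT letters from 32 to 40. Cxcl16 held the PU.1 letters from -191 to -186, and Cx3cl1 held them from -165 to -160 and, on the other strand, from -138 to -133. Among all 33469 promoters of the same length, the NF-kappaB letters stood in 6.05%, the PU.1 letters in 27.6%, the STAT letters in 8.87% and the interferon response letters in 9.71%. Of the 41 member promoters they stood in 8, 18, 6 and 2, in the same order, and of the 21 promoters of detected members in 3, 9, 3 and 2. A match describes letters in the window and is not evidence of a bound site. Among the other detected members, Ackr2, Ccl17, Ccl21, Ccl24, Ccl27, Ccr1 and Cxcl17 held the PU.1 letters. Ccl17 and Ccl24 also held the STAT letters, Ccl9 the NF-kappaB letters and Ccl19 the interferon response letters.

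Library depth ran from 30568927 to 54608922 fragments. Both tissues expressed neuronal and astrocyte markers throughout. The summed microglial markers (14 genes) were 22024 to 24211 in sham cortex, 30624 to 35929 in TBI cortex, 23720 to 31528 in sham thalamus and 48653 to 61186 in TBI thalamus. Of these, 12 of 13 tested markers rose in the cortex and 13 of 13 in the thalamus, against 14.3% and 14.5% of all loci. The 9 choroid plexus markers stood apart in a few libraries. In TBI thalamus their sum was 350939 in rat 45 and 9348 to 11666 in the other rats, in TBI cortex it was 43108 in rat 45 and 4597 to 5942 in the others, and in sham thalamus it reached 94246 in rat 34 and 138754 in rat 50. Sham cortex of rats 26 and 34 reached 31234 and 16417, against 4749 to 7263 in the other 4. For detected members, differences in which rat 45 held a value far from the rest of its group are given with and without it.

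In the perilesional cortex 26 members were tested by limma on log2(normalized count + 1) with Benjamini-Hochberg (BH) adjustment over all tested loci. Of these, 7 were higher in TBI than in sham rats and 3 were lower, against 29.2% of all tested loci called, 14.3% higher and 14.9% lower. The higher members were Cxcl10, Ccl3, Cxcl11, Ccl2, Cxcl16, Cxcr4 and Cx3cr1, and the lower ones were Cx3cl1, Cxcl14 and the locus that joins Ccr10 with Cntnap1. All 6 TBI libraries lay above all 6 sham libraries for 5 members, against 7.02% of all loci, and all 6 lay below for 0 members, against 5.45%. The median log2 difference of the members was 0.17, and that of all loci was -0.01. Of the 26, Ccl2, Ccl3, Ccl5 and Cxcl11 had a sham mean under 10 and so passed the filter through the TBI libraries, and 3 of these 4 were among the 7 called higher. Without the 3 libraries rich in choroid plexus markers (sham rats 26 and 34, TBI rat 45), 6 members were higher and 1, Cx3cl1, was lower. In that fit Ccl2 (0.96), Cxcl14 (-0.20) and the joined Ccr10 locus (-0.17) did not pass (limma, BH-adjusted p = 0.0576, 0.0553 and 0.121).

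In the ipsilateral thalamus 24 members were tested, of which 11 were higher and 2 lower in TBI rats by the same test, against 35.4% of all loci called, 14.5% higher and 20.9% lower. The higher members included Ccl3, Ccl2, Cxcl16, Cxcl13, Cxcl10, Cx3cr1, Ccl6, Ackr4, Cxcr4 and Cxcl14, and the lower ones were Cx3cl1 and the joined Ccr10 locus. All 6 TBI libraries lay above all sham libraries for 5 members and below for 2, against 7.46% and 10.7% of all loci. The median log2 difference was 0.44 for the members and -0.02 for all loci. Ccl2, Ccl3 and Cxcl13 passed the filter through the TBI libraries, and all 3 were called higher. Of all called loci in the thalamus 59.05% were lower with the deposited scaling, 45.74% with TMM scaling and 47.66% with upper quartile scaling, under which 12 members were called higher and 2 lower in each case. Without TBI thalamus of rat 45, 7 members were called higher: Ackr4, Ccl6, Cxcl10 and Cxcl13 no longer passed (limma, BH-adjusted p = 0.052 to 0.0938). Leaving out rat 22 or rat 56 from the TBI group also gave 7. When the 3 libraries rich in choroid plexus markers (sham rats 34 and 50, TBI rat 45) were left out together, 8 were higher and 2 lower, with Cxcr7 among the higher ones and the same 4 members lost.

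Across the regions, 6 members were higher in both, namely Ccl2, Ccl3, Cx3cr1, Cxcl10, Cxcl16 and Cxcr4. Cx3cl1 and the joined Ccr10 locus were lower in both. Cxcl14 was lower in the cortex and higher in the thalamus. The 2 regions came from the same rats, so they are not independent sets of animals. In bulk tissue, fewer cells of a type and less RNA per cell cannot be told apart, and the same holds for more cells and more RNA per cell.

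**Figure D1:**
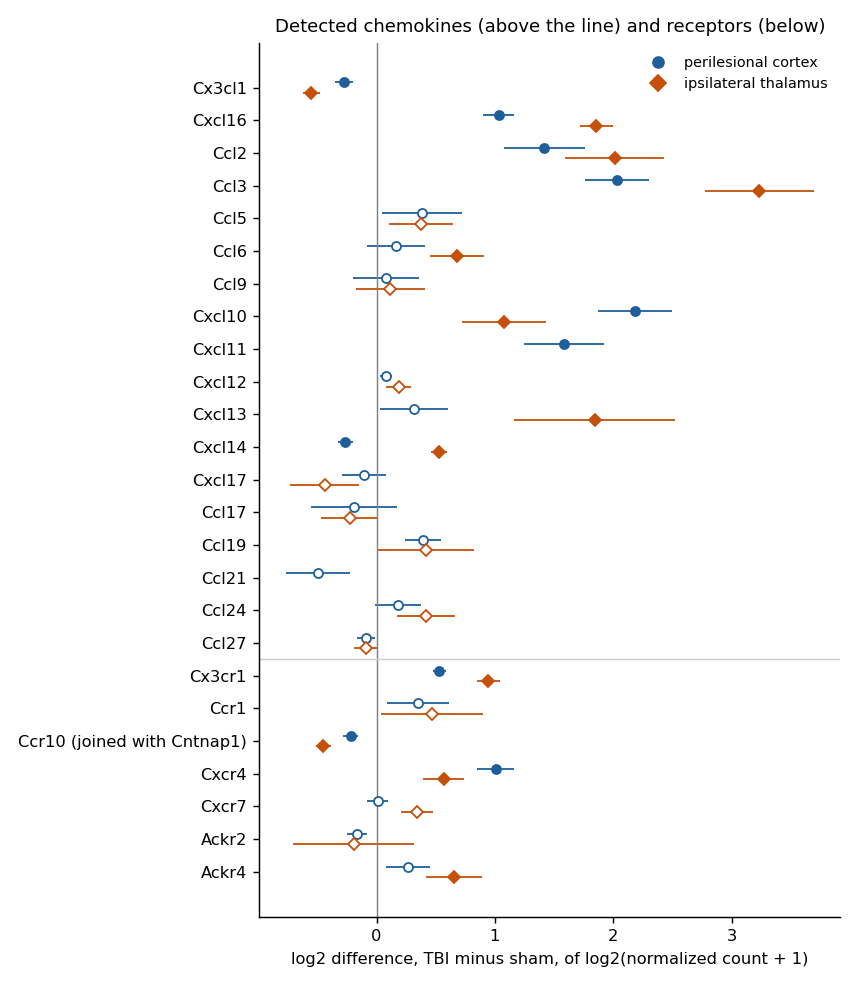
Log2 difference between TBI and sham rats, with its standard error as a bar, for 25 of the detected members in the perilesional cortex (blue circles) and the ipsilateral thalamus (orange diamonds), from log2(normalized count + 1) in 6 TBI and 6 sham libraries per region. Filled symbols passed the test and open ones did not. Ccl2, Ccl3, Cxcl10 and Cxcl16 lie to the right of 0 in both regions, Cx3cl1 to the left in both, and Cxcl14 on opposite sides.

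Cx3cl1 is made by neurons as a membrane protein with a chemokine domain on a stalk, and can be shed by ADAM proteases. It fell in both regions. In the cortex, Cx3cl1 measured 23444 to 30079 (median 26017) in sham libraries and 18721 to 25359.7 (median 21196) in TBI libraries. Of the TBI libraries, 5 lay below every sham library, and the groups overlapped in the remaining one. The log2 difference was -0.28 ± 0.078 SE (limma, BH-adjusted p = 0.0159). In the thalamus, Cx3cl1 measured 22864 to 27501 (median 24851) in sham and 14251 to 19094 (median 17224) in TBI libraries. The 6 TBI libraries all lay below the sham range, and the log2 difference was -0.55 ± 0.069 SE (limma, BH-adjusted p = 4.02e-05). The difference between the regional effects was -0.28 ± 0.11 SE and did not pass (limma, BH-adjusted p = 0.125). Without both libraries of rat 22 it was -0.35 (limma, BH-adjusted p = 0.0469). Of the 15 neuronal markers, 12 fell in the cortex and 13 in the thalamus, against 14.9% and 20.9% of all loci. The markers had median log2 differences of -0.29 and -0.48, and none was higher. Their part in the fall of Cx3cl1 was not tested.

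Cx3cr1, the fractalkine receptor, is carried in the brain mainly by microglia. In the cortex, Cx3cr1 measured 2014 to 2373 (median 2174) in sham and 2882 to 3410.3 (median 3202) in TBI libraries. In the thalamus, Cx3cr1 measured 2351 to 3028 (median 2735) in sham and 4474 to 6624 (median 4905) in TBI libraries. In both regions the groups did not overlap. The log2 differences were 0.53 ± 0.057 SE in the cortex (limma, BH-adjusted p = 1.85e-05) and 0.94 ± 0.096 SE in the thalamus (limma, BH-adjusted p = 6.74e-06). The ratios of the group means were 1.45 and 1.93. The thalamic difference exceeded the cortical one by 0.41 ± 0.12 SE on the log2 scale (limma interaction, BH-adjusted p = 0.0292). That call was lost when rat 24, 34, 38, 50, 55 or 56 was left out, with differences of 0.36 to 0.42 and BH-adjusted p = 0.0516 to 0.0776 (limma), and without the 6 libraries rich in choroid plexus markers (0.40, BH-adjusted p = 0.16).

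The level of Cx3cr1 moved with the microglial markers. Set against the sum of the 14 markers in the same library, Cx3cr1 was 8.70% to 9.80% (median 9.46%) in sham cortex and 8.45% to 10.4% (median 9.39%) in TBI cortex. In the thalamus it was 9.30% to 9.91% (median 9.56%) in sham and 7.76% to 11.1% (median 9.39%) in TBI libraries. The 4 medians lay close together and all 4 ranges overlapped. Cxcl16 stood differently against the same sum. Cxcl16 had medians of 1.27% in sham cortex and 1.66% in TBI cortex, and of 0.551% in sham and 1.05% in TBI thalamus, without overlap between TBI and sham in either region.

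**Figure D2:**
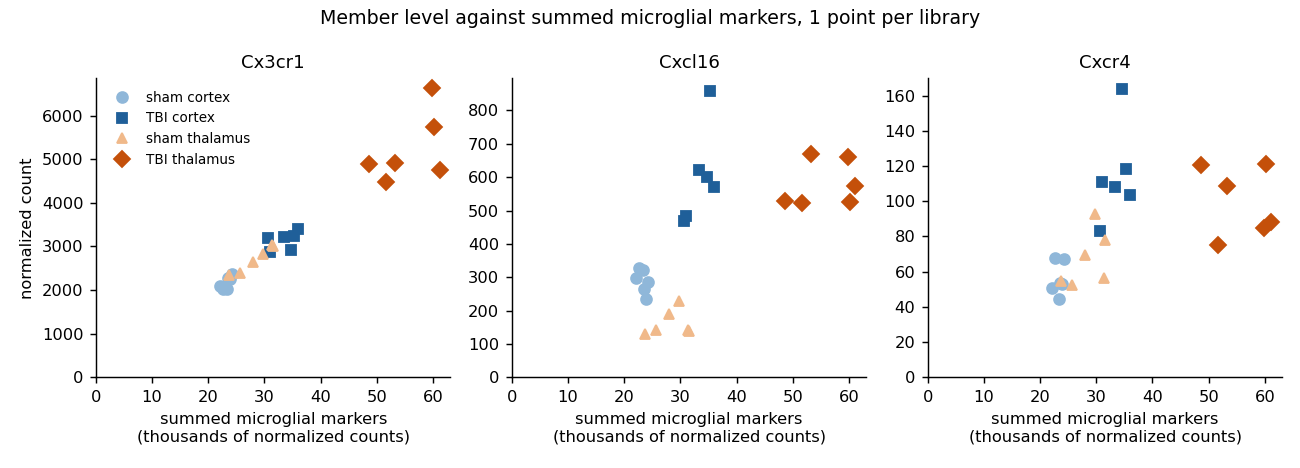
Normalized counts of Cx3cr1, Cxcl16 and Cxcr4 (vertical axes) against the summed normalized counts of 14 microglial marker genes (horizontal axis), 1 point per library, for the 24 libraries in 4 groups. Cx3cr1 lies at a like share of the sum in all groups (medians 9.39% to 9.56%), whereas the ratio of Cxcl16 to the sum is higher in TBI than in sham libraries of the same region, whose sums do not overlap.

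Cxcl16, the other transmembrane chemokine, is made by macrophages, microglia and endothelium, and binds Cxcr6. In the cortex, Cxcl16 measured 236 to 329 (median 292) in sham and 469 to 859.7 (median 586) in TBI libraries. In the thalamus, Cxcl16 measured 131 to 228 (median 141) in sham and 523 to 669 (median 551) in TBI libraries. Every TBI library exceeded every sham library of its region. Cxcl16 rose by 1.03 ± 0.13 SE on the log2 scale in the cortex (limma, BH-adjusted p = 6.84e-05) and by 1.86 ± 0.14 SE in the thalamus (limma, BH-adjusted p = 4.01e-07). The thalamic rise exceeded the cortical one by 0.83 ± 0.20 SE (limma interaction, BH-adjusted p = 0.0114). Sham thalamus started lower than sham cortex, by -0.86 ± 0.14 SE, and after TBI the ranges of the 2 regions overlapped. Its receptor Cxcr6, found on subsets of T cells, was silent by the limit, with 4 to 8 fragments in sham cortex, 7 to 24 in TBI cortex, 0 to 2 in sham thalamus and 0 to 8 in TBI thalamus.

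The inflammatory CC ligands lie in clusters on chromosome 10, where the deposited coordinates placed Ccl2, Ccl7, Ccl11, Ccl12 and Ccl1 in one stretch and Ccl5, Ccl9, Ccl6, Ccl3 and Ccl4 in another. Ccl2, the main attractant of monocytes, rose in both regions. In the cortex, Ccl2 measured 4.31 to 16.8 (median 8.21) in sham and 14.2 to 58.6 (median 23.4) in TBI libraries, and 4 of 6 TBI libraries lay above the sham range. In the thalamus, Ccl2 measured 0.955 to 9.46 (median 5.79) in sham and 12.2 to 47.8 (median 21.3) in TBI libraries, with no overlap. The rise was 1.42 ± 0.34 SE on the log2 scale in the cortex (limma, BH-adjusted p = 0.0065) and 2.01 ± 0.42 SE in the thalamus (limma, BH-adjusted p = 0.002). The highest value in TBI cortex came from rat 45, and without it the difference was 1.17 (limma, BH-adjusted p = 0.0134). Without that library and sham rats 26 and 34 it was 0.96 and did not pass (limma, BH-adjusted p = 0.0576). The naming rule found no locus for Ccr2, the receptor of Ccl2, so Ccr2 was not analysed here.

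Ccl3, a ligand of Ccr1 made by activated microglia and macrophages, showed the largest log2 difference of the 24 members tested in the thalamus. In the cortex, Ccl3 measured 2.23 to 6.80 (median 5.32) in sham and 16.7 to 33.9 (median 23.6) in TBI libraries. In the thalamus, Ccl3 measured 0 to 12.7 (median 3.53) in sham and 34.7 to 48.9 (median 37.6) in TBI libraries. The groups did not overlap in either region. The log2 differences were 2.04 ± 0.27 SE (limma, BH-adjusted p = 0.000101) and 3.24 ± 0.46 SE (limma, BH-adjusted p = 0.000121), cortex first. The regional effects differed by 1.20 ± 0.54 SE, which did not pass (limma interaction, BH-adjusted p = 0.19). Over the alternative settings the cortical difference ranged from 1.50 to 2.24 and the thalamic one from 2.31 to 3.99, passing the test in all of them in which Ccl3 was tested.

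Among the other CC ligands of chromosome 10, Ccl6 was called in the thalamus alone. In the thalamus, Ccl6 measured 15.9 to 32.5 (median 28.3) in sham and 30.6 to 61.0 (median 36.7) in TBI libraries, and 4 of 6 TBI libraries lay above the sham range. The log2 difference was 0.68 ± 0.23 SE (limma, BH-adjusted p = 0.0338). The call was lost when sham rat 32 or 50 or TBI rat 22, 45 or 56 was left out (0.56 to 0.68, BH-adjusted p = 0.0551 to 0.074, limma). In the cortex, Ccl6 measured 11.3 to 32.9 (median 28.2) in sham and 21.9 to 40.4 (median 29.0) in TBI libraries, a log2 difference of 0.17 ± 0.25 SE that did not pass (limma, BH-adjusted p = 0.64). Its regional effects differed by 0.51 ± 0.34 SE, which did not pass (limma interaction, BH-adjusted p = 0.401). Ccl5 (RANTES), a ligand of Ccr1 made by T cells and other cells, had overlapping ranges throughout. Ccl5 measured 3.35 to 11.6 (median 10.1) in sham cortex, 6.46 to 21.2 (median 11.9) in TBI cortex, 7.43 to 25.0 (median 18.0) in sham thalamus and 16.0 to 28.4 (median 22.9) in TBI thalamus. Its log2 differences were 0.38 ± 0.34 SE and 0.38 ± 0.27 SE and did not pass. Ccl9 measured 5.67 to 16.3 over the 12 sham libraries and 6.64 to 20.4 over the 12 TBI libraries, and was not called in either region.

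Ccl7, Ccl4 and Ccl12 were silent by the limit. Ccl7, a monocyte attractant next to Ccl2, was counted at 2 to 7 fragments in sham cortex and 9 to 38 in TBI cortex, and at 1 to 3 in sham thalamus and 5 to 27 in TBI thalamus, with no overlap in either region. Without a filter on low values its log2 differences were 1.38 ± 0.34 SE in the cortex (limma, BH-adjusted p = 0.00985) and 1.96 ± 0.38 SE in the thalamus (limma, BH-adjusted p = 0.0014). The 38 and 27 fragments were those of rat 45. Other TBI libraries held 9 to 15 in the cortex and 5 to 15 in the thalamus. Without the filter, no fit left out rat 45. Ccl4, a neighbour of Ccl3 made by activated macrophages, was counted at 0 to 4 fragments in the sham libraries and 2 to 16 in the TBI libraries, and without the filter it differed by 1.28 ± 0.37 SE and 1.99 ± 0.41 SE. Ccl12 held at most 4 fragments in any sham library, and 31 and 11 in the cortex and thalamus of rat 45.

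Ccr1 is a receptor of Ccl3 and Ccl5 on myeloid cells and T cells. Ccr1 measured 13.7 to 39.5 (median 27.0) in sham cortex and 24.7 to 45.4 (median 34.8) in TBI cortex. In the thalamus, Ccr1 measured 8.30 to 17.5 (median 11.2) in sham and 6.80 to 73.2 (median 14.6) in TBI libraries, the highest in rat 45. The log2 differences of Ccr1 were 0.35 ± 0.26 SE and 0.47 ± 0.43 SE and did not pass (limma, BH-adjusted p = 0.333 and 0.43), and without thalamus of rat 45 the second was 0.05.

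**Figure D3:**
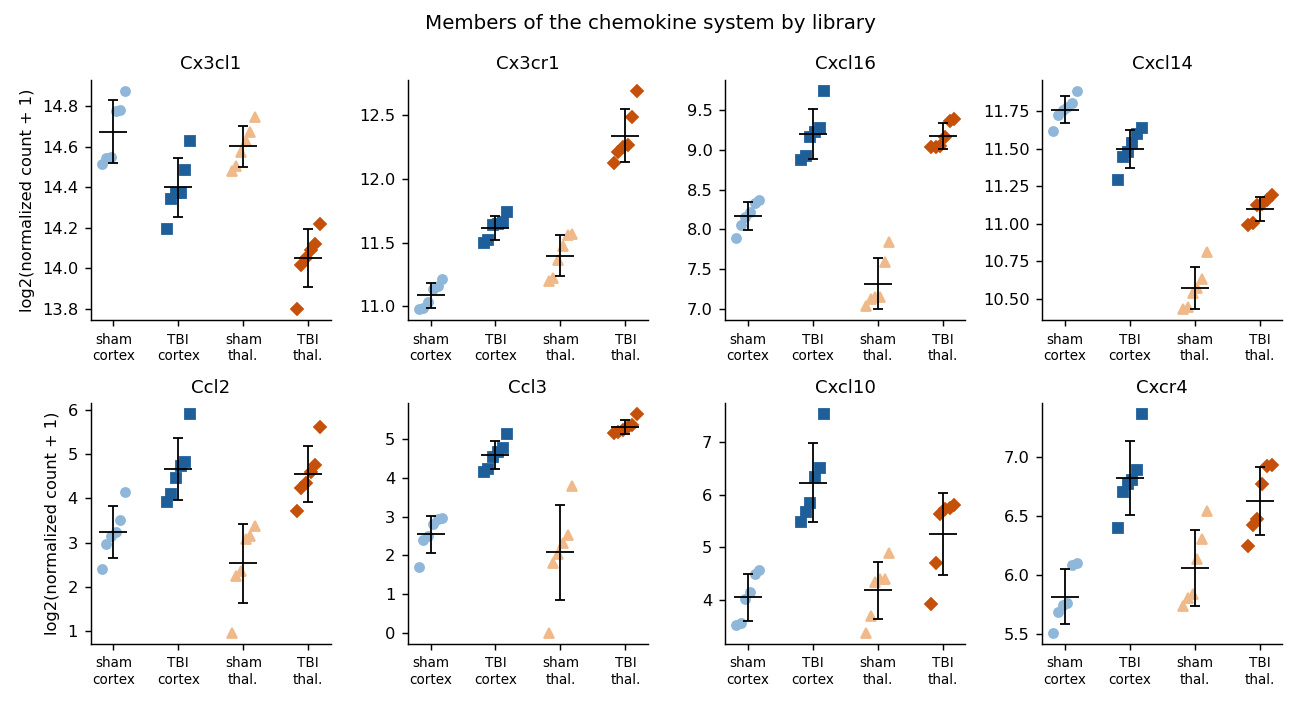
Log2(normalized count + 1) of 8 members in each of the 24 libraries, with the mean (wide bar) and SD (error bar) of the 6 libraries of each group. Panels have their own vertical scales, which do not start at 0. TBI and sham ranges are separate in both regions for Cx3cr1, Cxcl16 and Ccl3, in the thalamus alone for Cx3cl1, Cxcl14 and Ccl2, and in the cortex alone for Cxcl10 and Cxcr4.

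Cxcl9, Cxcl10 and Cxcl11 are induced by interferon and draw activated T cells and natural killer cells through Cxcr3. In the cortex, Cxcl10 measured 10.4 to 22.7 (median 15.9) in sham and 43.6 to 184 (median 68.4) in TBI libraries, with no overlap. Its log2 difference of 2.18 ± 0.31 SE was the largest of the 26 members tested in the cortex (limma, BH-adjusted p = 0.000178). The value of 184 came from rat 45, and without it the difference was 1.92 (limma, BH-adjusted p = 0.000142), below that of Ccl3 at 2.00. Without the libraries rich in choroid plexus markers Cxcl10 (1.79) was also below Ccl3 (2.06). In the thalamus, Cxcl10 measured 9.34 to 28.6 (median 19.5) in sham and 14.1 to 54.8 (median 50.4) in TBI libraries, and 4 of 6 TBI libraries lay above the sham range. The thalamic difference was 1.08 ± 0.35 SE (limma, BH-adjusted p = 0.0282). It did not pass when sham rat 38 or 55 or TBI rat 22, 24, 45 or 56 was left out (0.92 to 1.00, BH-adjusted p = 0.0554 to 0.0648, limma). The regional difference of -1.11 ± 0.50 SE did not pass (limma interaction, BH-adjusted p = 0.185).

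Cxcl11 was tested in the cortex, where it measured 3.23 to 13.7 (median 5.10) in sham and 12.2 to 30.8 (median 20.6) in TBI libraries. Of the TBI libraries, 4 lay above the sham range, and the log2 difference was 1.58 ± 0.34 SE (limma, BH-adjusted p = 0.0032). In the thalamus, Cxcl11 measured 0.955 to 10.0 (median 2.04) in sham and 1.22 to 23.4 (median 9.86) in TBI libraries, under the detection limit. Cxcl9 was silent, with 2 to 7 fragments in sham cortex, 3 to 21 in TBI cortex, 1 to 9 in sham thalamus and 3 to 26 in TBI thalamus. The receptor Cxcr3 was silent as well, with 2 to 8 fragments in sham cortex and 4 to 17 in TBI cortex, and with 0 to 6 and 1 to 8 in the thalamus. Of the 12 markers of T and natural killer cells, 1 of 5 tested was higher in the cortex and 2 of 3 in the thalamus. Of all loci, 14.3% and 14.5% were called higher. Of the tested markers 0 were lower, with median log2 differences of 0.19 and 1.78. The higher ones were Cd4 in both regions and Cd8b, a chain of the co-receptor of cytotoxic T cells, in the thalamus. Rat macrophages and microglia also carry Cd4, so its rise is not particular to T cells. Cd8b had means of 0.165 ± 0.404 in sham and 20.7 ± 9.78 in TBI thalamus (SD, n = 6 libraries each), a log2 difference of 4.16 ± 0.37 SE (limma, BH-adjusted p = 2.04e-06), and it passed the filter through the TBI libraries. In the cortex, Cd8b had means of 0.924 ± 1.35 in sham and 10.8 ± 6.66 in TBI libraries and was not tested, because its mean over both groups was under 10. The other chain, Cd8a, had group means of 7.76 to 11.7 and was not called in the cortex, and Cd3e, Cd3d and Cd3g, chains of the T-cell receptor complex, had group means of at most 16.1 in all 4 groups.

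Cxcl12 is made by endothelium, meninges and neurons and acts through Cxcr4, while Cxcr7 takes it up. Cxcr4 rose in both regions. In the cortex, Cxcr4 measured 44.7 to 68.0 (median 53.1) in sham and 83.3 to 164 (median 109.7) in TBI libraries, with no overlap. In the thalamus, Cxcr4 measured 52.4 to 92.6 (median 62.8) in sham and 75.1 to 121 (median 98.4) in TBI libraries, and 3 of 6 TBI libraries lay above the sham range. The log2 differences were 1.01 ± 0.16 SE (limma, BH-adjusted p = 0.000337) and 0.57 ± 0.17 SE (limma, BH-adjusted p = 0.0195). Its regional effects differed by -0.44 ± 0.24 SE, which did not pass (limma interaction, BH-adjusted p = 0.282). Against the microglial sum Cxcr4 had medians of 0.229% in sham and 0.329% in TBI cortex, and of 0.240% in sham and 0.173% in TBI thalamus. These shares overlapped between TBI and sham libraries in both regions.

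Neither Cxcl12 nor Cxcr7 was called. In the cortex, Cxcl12 measured 5070.1 to 5874 (median 5575) in sham and 5420.1 to 6414 (median 5639.8) in TBI libraries. In the thalamus, Cxcl12 measured 2618 to 3641 (median 3136) in sham and 3253 to 4872 (median 3329) in TBI libraries, the highest in rat 45. The log2 differences were 0.08 ± 0.054 SE and 0.19 ± 0.11 SE (limma, BH-adjusted p = 0.292 and 0.185), and without rat 45 the thalamic one was 0.096. Cxcr7 measured 533 to 691 (median 617) in sham cortex and 539 to 770.5 (median 603) in TBI cortex, a difference of 0.01 ± 0.091 SE. In the thalamus, Cxcr7 measured 387 to 641 (median 478) in sham and 534 to 902 (median 568) in TBI libraries, and its difference of 0.34 ± 0.13 SE did not pass (limma, BH-adjusted p = 0.0623). It passed with TMM scaling (0.39), with upper quartile scaling (0.38) and without sham rat 34 (0.42), at BH-adjusted p = 0.0392, 0.0394 and 0.02 (limma). The value of 902 came from rat 45. Without that library the difference was 0.23 (limma, BH-adjusted p = 0.107), and without sham rats 34 and 50 as well it was 0.35 (BH-adjusted p = 0.00938).

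Cxcl13 attracts B cells and follicular T cells through Cxcr5. In the thalamus, Cxcl13 measured 0 to 13.8 (median 6.49) in sham and 4.89 to 79.1 (median 16.3) in TBI libraries, and 3 of 6 TBI libraries lay above the sham range. The log2 difference was 1.84 ± 0.68 SE (limma, BH-adjusted p = 0.0476). The call was lost in 14 of 20 alternative fits, among them those without any 1 of 10 libraries (sham rats 26, 32, 38, 50 and 55, TBI rats 22, 45, 52, 56 and 63), with differences of 1.34 to 1.99 and BH-adjusted p = 0.0503 to 0.103 (limma). In the cortex, Cxcl13 measured 26.1 to 36.8 (median 31.0) in sham and 21.8 to 104 (median 34.8) in TBI libraries, the highest in rat 45. That difference was 0.32 ± 0.28 SE and did not pass (limma, BH-adjusted p = 0.431), and without rat 45 it was 0.04. The regional effects differed by 1.53 ± 0.78 SE, which did not pass (limma interaction, BH-adjusted p = 0.248). Cxcr5 was silent with at most 12 fragments in any library. The 6 B and plasma cell markers summed to 11.6 to 33.3 in the cortex libraries, and in the thalamus to 84.0 to 135 in sham and 34.4 to 91.7 in TBI libraries. Most of the thalamic sum was Cr2, a complement receptor, with means of 93.5 in sham and 41.9 in TBI thalamus (log2 difference -1.30 ± 0.29 SE, limma, BH-adjusted p = 0.00292), while the means of the other 5 markers there were at most 4.97.

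Cxcl14, a chemokine without a settled receptor that is made by interneurons in the cortex and by epithelia elsewhere, changed in opposite directions. In the cortex, Cxcl14 measured 3137 to 3787 (median 3486) in sham and 2510.2 to 3186 (median 2912) in TBI libraries, and 5 of 6 TBI libraries lay below the sham range. In the thalamus, Cxcl14 measured 1380.4 to 1794 (median 1504) in sham and 2040.4 to 2335 (median 2236) in TBI libraries, with no overlap. The log2 differences were -0.26 ± 0.061 SE in the cortex (limma, BH-adjusted p = 0.00522) and 0.53 ± 0.065 SE in the thalamus (limma, BH-adjusted p = 3.47e-05). The regional effects differed by 0.79 ± 0.09 SE (limma interaction, BH-adjusted p = 4.83e-06), with a range over 22 alternatives of 0.71 to 0.84 and all of them past the threshold. The directions were the same under TMM and upper quartile scaling. Without the libraries rich in choroid plexus markers the cortical difference was -0.20 and did not pass (limma, BH-adjusted p = 0.0553). The deposited Cxcl14 locus is long, from 11146999 to 11548829 on chromosome 17, so fragments of other transcripts inside it cannot be told apart. The inhibitory neuron marker Gad1 fell by 0.45 on the log2 scale in the cortex and by 0.85 in the thalamus. Gad1 was chosen after its values were seen, and the values of Gad2, also an inhibitory neuron marker, are not given. The part of Gad1 in the Cxcl14 values was not tested.

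Ccl19 and Ccl21 guide T cells and dendritic cells through Ccr7, and Ackr4 scavenges both. In the cortex, Ccl19 measured 145 to 199.6 (median 172) in sham and 175 to 358 (median 215) in TBI libraries, and 4 of 6 TBI libraries lay above the sham range. The difference was 0.39 ± 0.15 SE and did not pass (limma, BH-adjusted p = 0.0653), though it did with upper quartile scaling (0.41, BH-adjusted p = 0.0486) and without TBI rat 22 or 52 (0.45 to 0.46, BH-adjusted p = 0.04 to 0.0493). Without rat 45, which held the value of 358, it was 0.25 (limma, BH-adjusted p = 0.116). In the thalamus, Ccl19 measured 29.6 to 80.1 (median 35.3) in sham and 27.4 to 212 (median 43.0) in TBI libraries, a difference of 0.42 ± 0.41 SE that did not pass and was 0.02 without rat 45. Ccl21 measured 10.4 to 19.0 (median 15.4) in sham cortex and 6.64 to 19.1 (median 8.61) in TBI cortex, and its log2 difference of -0.49 ± 0.27 SE did not pass (limma, BH-adjusted p = 0.185). It was counted at 0 in all 12 thalamus libraries, which allows up to 3 fragments in each. Ccr7 was silent, with at most 11 fragments.

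In the thalamus, Ackr4 measured 17.0 to 40.1 (median 24.4) in sham and 29.5 to 57.3 (median 40.9) in TBI libraries, and 3 of 6 TBI libraries lay above the sham range. The log2 difference was 0.65 ± 0.24 SE (limma, BH-adjusted p = 0.0453). Any 1 of 9 libraries ended the call when left out (sham rats 32, 38, 50 and 55, TBI rats 22, 24, 45, 52 and 56), with differences of 0.54 to 0.69 and BH-adjusted p = 0.052 to 0.0966 (limma). In the cortex, Ackr4 measured 25.5 to 50.6 (median 38.6) in sham and 34.1 to 64.6 (median 43.4) in TBI libraries, a difference of 0.27 ± 0.19 SE that did not pass (limma, BH-adjusted p = 0.311). Its regional effects differed by 0.39 ± 0.30 SE, which did not pass (limma interaction, BH-adjusted p = 0.493). Ackr2, which scavenges inflammatory CC ligands such as Ccl2 and Ccl3, was not called. It measured 334 to 454 (median 389) in sham cortex and 307 to 382 (median 347) in TBI cortex, and 4.15 to 20.0 (median 10.7) in sham thalamus and 3.40 to 41.7 (median 7.75) in TBI thalamus. Its thalamic difference of -0.19 ± 0.51 SE was -0.60 without rat 45, the library with the value of 41.7.

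Ccl27, Ccl24, Ccl17 and Cxcl17 were tested in both regions and not called in either. Ccl27, a skin-homing chemokine known from epithelia, measured 1198 to 1422 (median 1361) in sham cortex and 1093 to 1560.0 (median 1213) in TBI cortex, and 427 to 575 (median 466) in sham thalamus and 366 to 542 (median 459) in TBI thalamus. Its log2 differences were -0.09 ± 0.077 SE and -0.09 ± 0.10 SE (limma, BH-adjusted p = 0.4 and 0.541). Ccl24, a Ccr3 ligand made by macrophages, measured 27.9 to 68.9 in sham cortex, 48.8 to 67.1 in TBI cortex, 36.3 to 70.1 in sham thalamus and 38.5 to 119.9 in TBI thalamus, the highest in rat 45. Its thalamic log2 difference was 0.42 with rat 45 and 0.21 without it. Ccl17, a Ccr4 ligand, measured 3.33 to 24.2 over all 24 libraries. Cxcl17 had 2 loci at the same coordinates. The kept locus measured 14.3 to 41.3 and was not called, and the other one measured 11.9 to 23.1 in sham and 21.3 to 37.9 in TBI thalamus, a log2 difference of 0.69 ± 0.21 SE (limma, BH-adjusted p = 0.0218). The deposited file does not say how fragments were divided between the 2 loci, so values of Cxcl17 are uncertain.

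The thalamus libraries with many choroid plexus transcripts held the extreme values of several members. TBI thalamus of rat 45, with a choroid plexus sum of 350939, was the highest of its group for Ccl19 (212), Ccr1 (73.2), Ackr2 (41.7), Cxcl12 (4872), Cxcr7 (902) and Ccl24 (119.9). The other 5 TBI thalamus libraries measured 27.4 to 53.3 for Ccl19, 6.80 to 16.2 for Ccr1, 3.40 to 13.2 for Ackr2 and 3253 to 3466 for Cxcl12. In sham thalamus, rat 34, with a sum of 94246, held the highest Ccl19 (80.1), while rat 50, with a sum of 138754, measured 33.6, within the range of the others. Both rats held the highest Ackr2 of sham thalamus, at 20.0 each. The summed markers of fibroblasts and mural cells were also highest in rat 45, at 41038 against 19531 to 22651 in the other TBI thalamus libraries. The part of these cells in the member values was not tested.

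**Figure D4:**
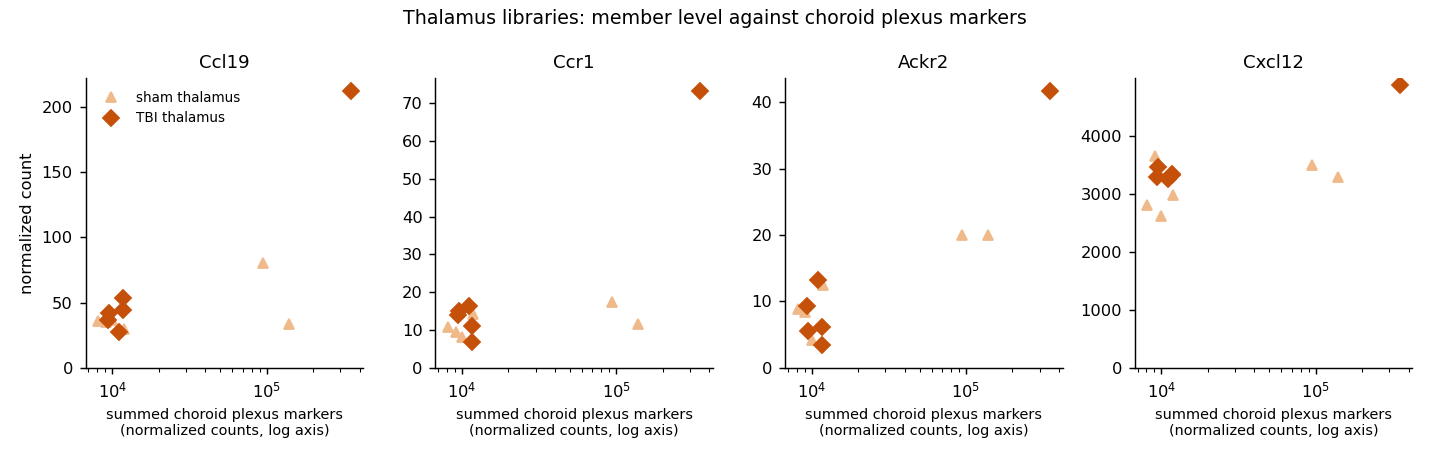
Normalized counts of Ccl19, Ccr1, Ackr2 and Cxcl12 against the sum of 9 choroid plexus markers (log axis) in the 6 sham (triangles) and 6 TBI (diamonds) thalamus libraries. The diamond at the far right is rat 45, with a sum of 350939, and it is the highest point in all 4 panels. The 2 triangles to the right of the other sham libraries are rats 34 and 50.

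The kept locus of Ccr10 is joined with Cntnap1, a paranodal adhesion gene of myelinated axons, so its values cannot be assigned to Ccr10. It measured 17846 to 21908 (median 21040.3) in sham cortex and 15397 to 19317 (median 17652) in TBI cortex, a log2 difference of -0.22 ± 0.063 SE (limma, BH-adjusted p = 0.0181). In the thalamus the joined locus measured 16978 to 19299.6 (median 17459) in sham and 11001 to 14691 (median 12864) in TBI libraries, a difference of -0.45 ± 0.065 SE (limma, BH-adjusted p = 0.000138). A second locus named Ccr10 alone, at the same coordinates, measured 13.9 to 29.9 in the cortex and 15.9 to 33.8 in the thalamus and was not called in either region. With that locus in place of the joined one, 2 members were lower in the cortex and 1 in the thalamus, and 9 were lower in sham thalamus than in sham cortex.

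In sham rats 22 members could be compared between the regions, of which 2 were higher and 10 lower in thalamus than in cortex. Of all loci 62.2% were called in this comparison, 33.9% higher and 28.3% lower. The groups were fully separate, thalamus below cortex, for 7 members and thalamus above cortex for 0, against 19.2% and 23.9% of all loci. The 7 were Ackr2, Ccl19, Ccl27, Cxcl12, Cxcl13, Cxcl14 and Cxcl16. The median log2 difference was -0.23 for the members and 0.03 for all loci. Ackr2 differed most, at 334 to 454 in sham cortex and 4.15 to 20.0 in sham thalamus, a log2 difference of -5.01 ± 0.28 SE (limma, BH-adjusted p = 3.2e-10). Cxcl13 differed by -2.48 ± 0.48 SE, Ccl19 by -2.09 ± 0.20 SE, Ccl27 by -1.48 ± 0.076 SE, Cxcl14 by -1.19 ± 0.064 SE and Cxcl12 by -0.82 ± 0.074 SE. Ccr1 (-1.07 ± 0.28 SE), Cxcr7 (-0.35 ± 0.10 SE) and the joined Ccr10 locus (-0.21 ± 0.053 SE) were lower with overlapping ranges.

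Cx3cr1 and Ccl5 were higher in sham thalamus than in sham cortex. The difference was 0.31 ± 0.071 SE for Cx3cr1 (limma, BH-adjusted p = 0.00127), and 5 of 6 thalamus libraries lay above the cortex range. Ccl5 differed by 0.88 ± 0.33 SE (limma, BH-adjusted p = 0.0291). With the rat as a replicate block this was 0.88 and did not pass (BH-adjusted p = 0.0519), so that 1 member was called higher in the paired fit, and it did not pass either without rat 34, 38, 50 or 55 (0.56 to 0.91, BH-adjusted p = 0.0515 to 0.126, limma) or without the libraries rich in choroid plexus markers (0.73, BH-adjusted p = 0.179). Cx3cl1, at a difference of -0.07 ± 0.069 SE, was not called between the regions (limma, BH-adjusted p = 0.376).

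**Figure D5:**
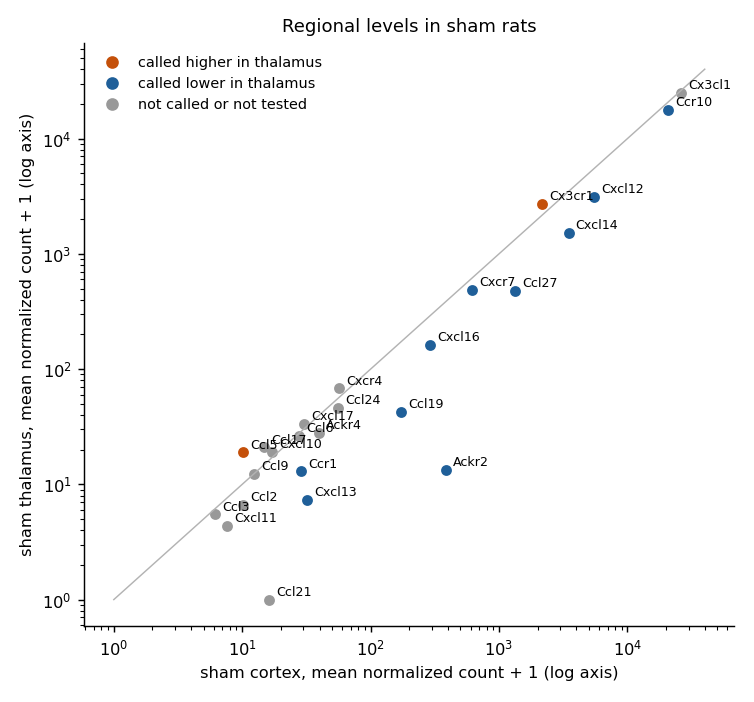
Mean normalized count + 1 of 25 detected members in the 6 sham cortex libraries (horizontal, log axis) and in the 6 sham thalamus libraries (vertical, log axis), with the line of equal levels. Orange points were called higher and blue points lower in thalamus, and grey points were not called or not tested. Ccr10 is the locus joined with Cntnap1. Ackr2 lies farthest below the line among the tested members.

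The effect of TBI differed between the regions for 3 of 25 members tested, against 7.26% of all loci, 2.72% higher and 4.54% lower in the thalamus. These were Cxcl14, Cxcl16 and Cx3cr1, each with the more positive difference in the thalamus, and 0 were called the other way by limma (1 without rat 22, namely Cx3cl1, and 0 by edgeR). With the rat as a replicate block the calls were again 3 and 0.

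Of the 29 silent members, 6 had no library above 3 fragments, namely Ccl1, Ccl26, Ccr4, Ccr8, Cxcl3 and Cxcl5. The neutrophil-attracting ligands Cxcl1 and Cxcl2 and their receptors Cxcr1 and Cxcr2 were all silent. Cxcl1 was counted at 0 to 2 fragments in every sham library and at 0 to 10 in the TBI libraries, and the kept locus of Cxcl2 reached 19 fragments in 1 sham thalamus library. Both genes carry the same deposited coordinates, so their fragments are uncertain. Xcr1, a receptor of cross-presenting dendritic cells, was counted at 0 to 4 fragments in sham cortex and 2 to 7 in TBI cortex, while its ligand Xcl1 was silent too. Fitted without a filter on low values, 5 of the silent members were higher in TBI cortex (Ccl12, Ccl4, Ccl7, Cxcr5 and Xcr1) and 2 in TBI thalamus (Ccl4 and Ccl7). Of these, Ccl12 held 31 fragments in TBI cortex of rat 45 and 3 to 6 in the other TBI cortex libraries. The share of all loci called in the fit without a filter is not given, so these counts are not set against it. In the same fit Ackr4, Ccl6 and Cxcl13 were no longer called in the thalamus (limma, BH-adjusted p = 0.069, 0.0528 and 0.0582). The remaining silent names were Ccl11, Ccl20, Ccl22, Ccl25, Ccl28, Ccr1l1, Ccr3, Ccr6 and Ccr9, with at most 20 fragments in any library.

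Genes that work with the chemokine system were counted by the same test, in which 14.3% of all loci rose and 14.9% fell in the cortex and 14.5% rose and 20.9% fell in the thalamus. Of 11 tested genes related to chemokines that do not carry a chemokine symbol, 8 rose in the cortex and 6 in the thalamus and 0 fell, among them Cmklr1, the chemerin receptor (0.63 and 1.29 on the log2 scale, cortex first), Cmtm3 (0.89 and 1.07) and the atypical receptor Ccrl2 (0.52 and 0.90). Of 41 tested genes of chemokine receptor signalling, from G proteins to the integrins they activate, 16 rose and 7 fell in the cortex and 23 rose and 6 fell in the thalamus. The largest changes were in Rgs1, which shortens G protein signals (0.76 and 2.01), the leukocyte integrin chain Itgal (1.09 and 1.94) and the oxidase subunit Ncf1 (1.28 and 1.68). Of the genes that cut, modify or display chemokines, 7 of 17 rose and 3 fell in the cortex and 6 of 16 rose and 2 fell in the thalamus, with Ctsk at 0.46 and 1.16. Of 22 tested genes of chemokine induction, 16 rose in each region, with Irf8 at 0.88 and 1.47 and Spi1, which encodes PU.1, at 0.89 and 1.25. The 1 gene of this list that fell, in the thalamus, was Tnf (-1.06), named after its value was seen. The median log2 differences of the 4 lists were, in the order given, 0.52, 0.10, 0.08 and 0.44 for the cortex and 0.56, 0.31, 0.16 and 0.64 for the thalamus.

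Markers of other leukocytes were counted in the same libraries. Of the macrophage and monocyte markers, 4 of 7 tested rose in the cortex and 1 of 6 in the thalamus, against 14.3% and 14.5% of all loci. The thalamic count lies near that share. The sum of these markers was 1596 to 1955 in sham cortex, 2362 to 4501 in TBI cortex, 1642 to 2062 in sham thalamus and 2211 to 4570 in TBI thalamus. Rat 45 held the highest sum in both TBI groups. Of the sum of the T and natural killer cell markers, Cd4, which rat macrophages and microglia also carry, made up most in every group. Of 8 neutrophil markers 2 were tested in each region, and 1 of them, Csf3r, rose in both (0.75 and 1.30). The other tested marker was not called in the cortex or in the thalamus. The part of any of these cells in the chemokine values was not tested.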

How the data were processed

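Poly(A)-selected stranded mRNA libraries from 24 tissue samples (6 TBI and 6 sham rats, perilesional cortex and ipsilateral thalamus of each) were compared. Per the submitters' processing notes and the study's methods, reads were aligned with TopHat2 2.0.11 on Bowtie2 2.2.2 and quantified per locus with Cufflinks 2.2.1 and Cuffdiff. The methods name genome RGSC3.4 with the Rnor_5.0 Ensembl annotation, and the labels name Rnor_5.0, so the build of the deposited coordinates is uncertain between these. The deposited signal values were made by the authors from fragment counts per locus, scaled by 1 size factor for each library and not by length. Their steps gave whole fragments (tolerance 0.05) for all values up to 1000 fragments checked, from which the depths of 30568927 to 54608922 fragments were recovered. One sham thalamus column has a step close to 1 and was read in the same way. Of 42334 loci, 26641 had a gene symbol, and the 15693 without one held 1.9% to 2.23% of counts and did not enter the fits.

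Log2(value + 1) was fitted with limma 3.58.1 (empirical Bayes with trend) over named loci with a mean of at least 10 in the libraries of the fit, with two-sided p-values, Benjamini-Hochberg adjustment over all tested loci and a threshold of 0.05. TBI was compared with sham within each region, the regional effects by an interaction term over all libraries, and sham thalamus with sham cortex. Per the fixed rule, values are given for members past the threshold in any comparison and for listed ligand and receptor pairs, and for other lists for at most 3 genes with the largest changes. The T-cell markers, Cd4, Cr2, Csf3r, Gad1 and Tnf were named after their values were seen. The values of 1 member are not reported here, and it is included in the counts of members. The members and gene lists were chosen with earlier results of these data known. Alternatives were other scalings, filters, pseudocounts, a stricter threshold, limma-voom, leaving out each library and a block for the rat. After seeing the data, edgeR 4.0.16 quasi-likelihood tests on the recovered fragments, Ccr10 at its unjoined locus, and a fit without the 6 libraries rich in choroid plexus markers were added. The fits were tested on simulated data. Known changes were set there only in loci with a mean of at least 50, so the simulation does not cover members with lower means. Both regions came from the same rats, which is where the pairing comes from: deviations from the group means correlated between the regions of a rat with a median r of 0.187 (0.00393 to 0.569 over 12 rats), and over 0.1 in 10 of 12. Promoter sequences were RefSeq's in build GRCr8. R 4.3.3 and Python 3.11.15 were used. Counts of 0 allow up to 3 fragments, and this limit covers counting error only.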

Additional observations from a re-analysis of the deposited data

Results flagged for a closer look

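In 16 cases among 102 groups of 6 libraries, 1 library of a group stood far from the other 5 for a member (Dixon's criterion). Chance flags about 1 in 20 groups of independent, normally distributed values. The 102 groups share libraries and hold untransformed normalized counts, so this rate is not exact here. Of the 16, 10 were in libraries of rat 45, 6 in its thalamus and 4 in its cortex.

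In TBI thalamus of rat 45 these were Ackr2 (41.7 normalized counts, others 3.40 to 13.2), Ccl19 (212, others 27.4 to 53.3), Ccl24 (119.9, others 38.5 to 56.8), Ccr1 (73.2, others 6.80 to 16.2), Cxcl12 (4872, others 3253 to 3466) and Cxcr7 (902, others 534 to 605). In TBI cortex of the same rat they were Ccl2 (58.6, others 14.2 to 27.4), Ccl19 (358, others 175 to 237), Cxcl10 (184, others 43.6 to 90.7) and Cxcl13 (104, others 21.8 to 42.2). All were above the other libraries. Summed choroid plexus and macrophage and monocyte markers were also highest in these 2 libraries, and their part was not tested.

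Sham thalamus of rat 34 stood above its group for Ccl19 (80.1, others 29.6 to 36.3) and Cxcl11 (10.0, others 0.955 to 4.25). Ccl3 stood high in sham thalamus of rat 32 (12.7, others 0 to 4.77) and in TBI thalamus of rat 24 (48.9, others 34.7 to 39.9). Sham cortex of rat 50 was low for Ccl5 (3.35, others 9.07 to 11.6), and sham cortex of rat 34 was low for Ccl6 (11.3, others 26.9 to 32.9).

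The effect of TBI differed between thalamus and cortex by the interaction term for Cxcl16 (0.83 on the log2 scale), Cxcl14 (0.79) and Cx3cr1 (0.41). The Cx3cr1 call was lost when rat 24, 34, 38, 50, 55 or 56 was left out (limma, BH-adjusted p = 0.0516 to 0.0776). It was also lost without the libraries rich in choroid plexus markers (limma, BH-adjusted p = 0.16).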

How the results depend on the processing

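Of the member results computed under alternatives, 1835 kept their direction or their side of the threshold, 56 lost a call, 12 gained one, and no called member changed sign. In the cortex, 7 members were higher and 3 lower, with 4 higher at a mean of at least 50 and 12 with no filter, and 1 lower at a threshold of 0.01 and 1 without the libraries rich in choroid plexus markers. No single library ended any of these calls. In the thalamus, 11 were higher and 2 lower, with 5 higher at a mean of at least 50, 6 at 0.01, and 7 to 12 when a library was left out (12 without sham rat 34), and 1 lower with Ccr10 at its unjoined locus. Ackr4, Ccl6, Cxcl10 and Cxcl13 in the thalamus depended on single libraries. The difference between regions was called for 3 members higher and 0 lower, with 1 higher at 0.01, and 2 to 3 higher and 0 to 1 lower when a rat was left out. The member that lost this call when a rat was left out was Cx3cr1. Between the sham regions, 2 were higher and 10 lower, with 1 higher at a mean of at least 50, 1 at 0.01, 1 without the libraries rich in choroid plexus markers, 1 to 2 when a rat was left out, and 16 lower with no filter. The cause of these changes was not tested, except that a higher filter tests fewer members and the fit without a filter adds silent ones. That fit also ended the thalamic calls of Ackr4, Ccl6 and Cxcl13 (limma, BH-adjusted p = 0.069, 0.0528 and 0.0582). Shares of all loci called are not given for the fits with other filters.

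With the rat as a replicate block, 1 member was higher between the sham regions, since Ccl5 did not pass (limma, BH-adjusted p = 0.0519), and 3 differed in the effect of TBI between regions. The pairing changed no other call. By edgeR on recovered fragments, the cortex had 7 members higher and 3 lower and the thalamus 10 higher and 2 lower, since Ackr4 did not pass (BH-adjusted p = 0.0517). At 30568927 to 54608922 fragments per library, silent members held few fragments, so a difference may have been undetectable at this depth.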
